A study of Drosophila melanogaster with 3 samples.

Results

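The Hox genes of Drosophila are the 8 homeobox genes lab, pb, Dfd, Scr, Antp, Ubx, abd-A and Abd-B, and they were chosen by symbol in the Ensembl annotation of the fly genome, 8 of 13945 protein-coding genes on the 6 chromosome arms. Chromatin immunoprecipitation followed by sequencing had been used to map the protein CG3995, named bdwf in the annotation, over the whole genome. The embryos were whole animals of both sexes, aged 0 to 24 hours, of 1 transgenic line that stably made CG3995 fused at its C terminus to GFP, the target of the antibody. There were 3 biological replicates of this 1 group and no second condition, so no sample served as a control here. All embryonic stages and cell types were mixed in each sample, and a peak present in few cells and a weak peak in many cells cannot be told apart.

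Hox genes encode homeodomain transcription factors that give each segment of the body its identity along the axis from head to tail. In flies they are split into the Antennapedia complex, which serves the head and the front of the thorax, and the Bithorax complex, which serves the rear of the thorax and the abdomen. Long stretches of enhancers, boundary elements and Polycomb response elements lie between and within the genes, and the order of the genes on the chromosome largely follows the order of the body parts they specify. Early segmentation proteins set the domains of Hox expression, and Polycomb and trithorax group proteins then keep the genes off or on.

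All 8 genes lie on chromosome arm 3R. From the lower coordinate upward, lab, pb, Dfd, Scr and Antp spanned 6661427 to 6999228 (337.8 kb, build dm6), and Ubx, abd-A and Abd-B spanned 16656623 to 16972236 (315.6 kb). The gene of the tagged protein lies outside both complexes, on the same arm at 17041896 to 17043136. The data were lists of regions, each with a summit (the point of highest enrichment) and a signal value. The signal was taken as the peak caller's measure of enrichment, on a scale that was not stated, and has no unit. The pooled list held 27868 regions, peaks and background together, called on all 3 replicates. The thresholded list held 4260 of these, deposited after a threshold on agreement between replicates. They were the 4260 strongest of the pooled list, so a place in the thresholded list does not show that a region agreed between replicates. Of the 4260, 4212 had a region in all 3 replicates. Each replicate had a list of its own, with 30000, 28051 and 24171 regions in replicates 1, 2 and 3. The round number of replicate 1 may be a limit on list length, though none was stated, so counts over its whole list may be lower limits. Signal scales differed between these lists, so a region is given by its signal within a list and by its rank, 1 being the strongest. Read depth was unknown.

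Within the complexes 4 thresholded summits were found, the strongest of the 95 pooled regions there. None lay within pb, Dfd, Scr, Ubx, abd-A or Abd-B or at a start of these genes. The strongest lay in the long intron of lab, the next between Ubx and abd-A, and the other two at the start of lab and in an intron of Antp. Their sequences are shown because they are all the thresholded peaks of the complexes. Each is the plus strand of dm6, read from the RefSeq copy of the assembly, 100 bases to either side of the summit in the pooled data, and the capitals mark the stretch between the lowest and the highest of the 3 replicate summits, so that a short run in capitals means close placement. The windows are chr3R:6664517-6664717 for the lab intron, chr3R:16798798-16798998 between Ubx and abd-A, chr3R:6678502-6678702 for the lab start and chr3R:6912412-6912612 for the Antp intron.

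lab intron: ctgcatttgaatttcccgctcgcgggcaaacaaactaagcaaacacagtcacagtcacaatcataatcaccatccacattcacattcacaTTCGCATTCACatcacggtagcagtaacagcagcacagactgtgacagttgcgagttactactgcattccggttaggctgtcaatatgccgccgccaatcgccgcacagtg

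Ubx to abd-A: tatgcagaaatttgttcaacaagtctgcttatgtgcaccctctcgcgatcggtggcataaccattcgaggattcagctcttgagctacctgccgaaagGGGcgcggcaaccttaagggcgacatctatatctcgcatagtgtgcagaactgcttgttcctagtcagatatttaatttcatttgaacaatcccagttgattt

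lab start: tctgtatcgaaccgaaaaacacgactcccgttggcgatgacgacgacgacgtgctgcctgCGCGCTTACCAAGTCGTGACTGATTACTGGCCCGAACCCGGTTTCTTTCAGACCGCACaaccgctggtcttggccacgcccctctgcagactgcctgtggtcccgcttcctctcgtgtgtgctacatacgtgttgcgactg

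Antp intron: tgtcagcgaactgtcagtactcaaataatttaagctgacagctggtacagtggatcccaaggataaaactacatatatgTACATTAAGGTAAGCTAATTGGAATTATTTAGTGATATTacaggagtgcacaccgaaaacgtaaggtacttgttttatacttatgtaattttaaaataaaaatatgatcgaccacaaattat

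The summits of the 3 replicates fell within 10 bp of each other in the lab intron, 2 bp between Ubx and abd-A, 57 bp at the lab start and 38 bp in the Antp intron. Over the 4212 thresholded peaks with a region in every replicate the median spread was 37 bp (quartiles 17 and 76 bp). The 2 strong peaks of the complexes were thus placed more tightly than the lower quartile, and the 2 weak ones lay within the quartiles. These quartiles cover peaks of every rank, and no comparison with peaks of like rank was made. Base composition differed among the windows: G and C made up 48.8% of the lab intron window, 45.3% of that between Ubx and abd-A, 58.7% at the lab start and 31.8% in the Antp intron, against a median of 37.3% over all thresholded windows (quartiles 32.8% and 42.4%).

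**Figure D1:**
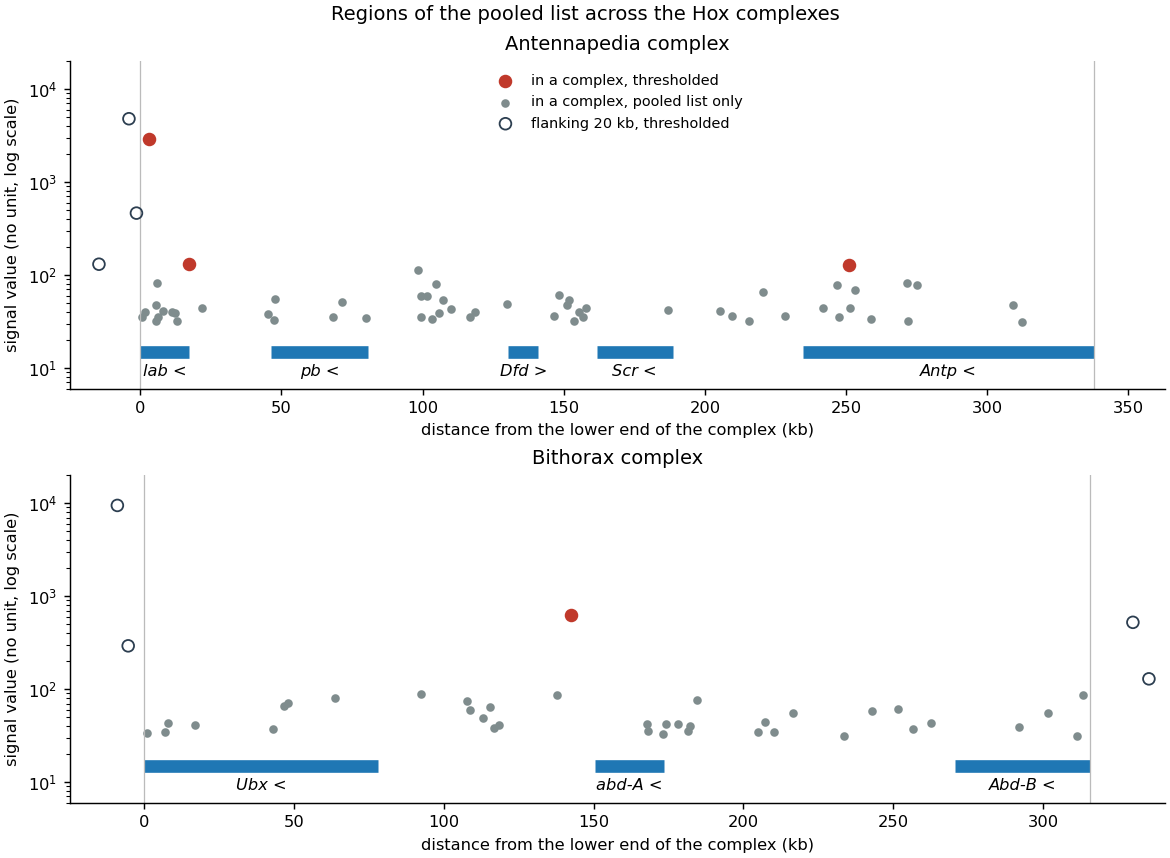
Signal of every pooled region (log scale, no unit) along the Antennapedia and the Bithorax complex, as distance in kb from the lower end of each; red points are thresholded, grey points are in the pooled list only, open circles are thresholded peaks in the 20 kb on either side, and blue bars are the Hox genes with the direction of transcription. Of the points within the complexes, those in the lab intron (2912) and between Ubx and abd-A (631) stand above the others, which all lie at or below 131.5.

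At the starts of the genes, lab was the single Hox gene with a thresholded summit within 500 bp, 1 of 8, where 28.2% of all protein-coding genes had one. In the pooled list 5 of 8 had a summit that near (lab, Dfd, Scr, Antp and abd-A), where 57.3% of all genes did. In replicate 1 the count was 6 of 8, against 58% of all genes, in replicate 2 it was 2 of 8, against 57%, and in replicate 3 it was 3 of 8, against 51.2%. The replicates thus averaged 3.67 ± 2.08 Hox genes (SD, n = 3). Only lab and Antp had a summit at a start in every replicate. Some absences lay just beyond the limit of 500 bp. The nearest summit was 552 bp from the Dfd start in replicate 3 and 559 bp from the inner Scr start in replicate 2. Among the strongest 4260 regions of each replicate, lab had one at a start in replicates 1 and 3, against 28% and 26.3% of all genes, and no Hox gene had one in replicate 2, against 28%. That averaged 0.667 ± 0.577 Hox genes, against 27.4% ± 0.979 of all genes (SD, n = 3 each). With 8 genes a count of 1 is a description of these genes and no test was made on it. By single start sites, 1 of 19 annotated Hox starts had a thresholded summit, against 25.3% of the 19253 coding starts, and 7 of 19 had a pooled one, against 56.3%. In replicates 1, 2 and 3 it was 8, 3 and 4 of 19 Hox starts, against 57.3%, 55.4% and 49.2% of all coding starts.

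**Figure D2:**
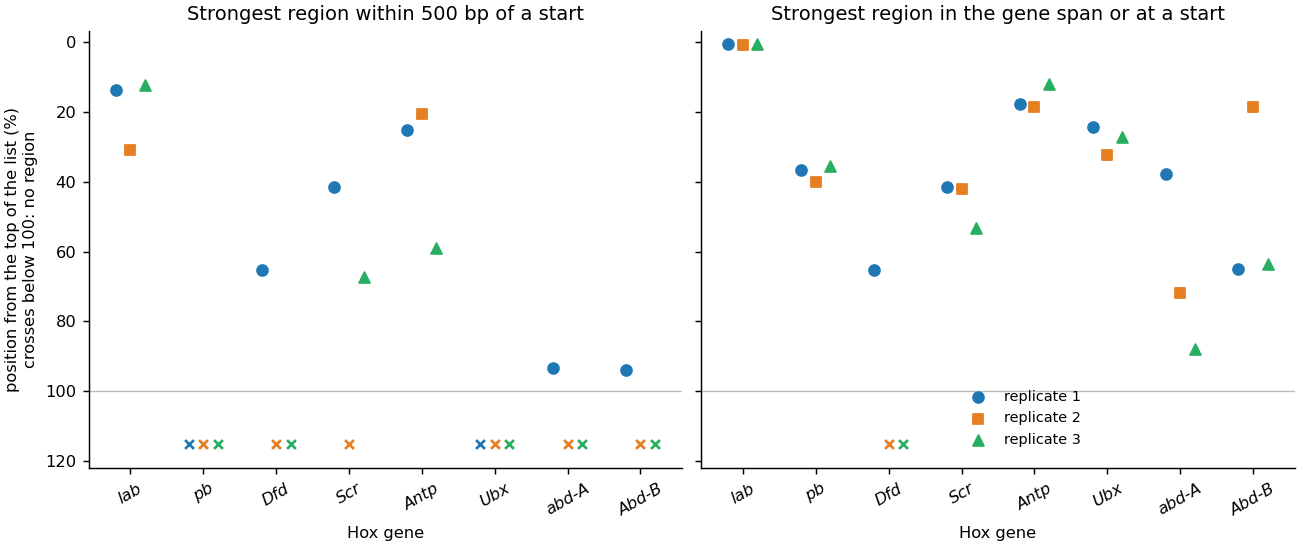
Position of the strongest region of each Hox gene from the top of each replicate list (0% is the strongest), within 500 bp of a start on the left and anywhere in the gene or at a start on the right; a cross means that no region was called there. At starts lab lies between 12.3% and 30.8% and pb and Ubx have crosses only, while on the right lab is within the top 0.866% in all 3 replicates.

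The gene lab, or labial (FBgn0002522), which specifies parts of the head and of the midgut, lies on the minus strand at 6661427 to 6678590. Its strongest region (6664354 to 6664838, 485 bp wide, signal 2912) held rank 220 of the pooled list, in the top 0.789%. In the replicate lists its ranks were 229, 243 and 178 and its signals 1141, 732 and 1074, so it was near the top of each list. The summit, 6664617, lay in an intron of 13676 bp, 1163 bp upstream of the start of a short lab transcript at 6663454 and far from the main start at 6678590. In contrast, the peak at that main start (summit 6678602, 12 bp upstream, signal 131.5) was rank 4099, near the lower edge of the thresholded list. Its replicate ranks were 4173, 8651 and 2980, with signals of 59.4, 23.9 and 47.4, so replicate 2 placed it outside its strongest 4260 regions. The thresholded summit at the lab start had support among the strongest 4260 of replicates 1 and 3 only, and asking for it in replicates 2 and 3 or in replicates 1 and 2 left 0 Hox genes with a summit at a start. Another, weak region (signal 39.9, rank 19193) lay 448 bp downstream of the short transcript's start, with a region there in replicates 1 and 3. The lab gene held 11 pooled summits in 17.2 kb (64.1 per 100 kb), against 20.7 per 100 kb over arm 3R, but its replicates differed, with 8 ± 5.57 (SD, n = 3) in the gene.

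The gene pb, or proboscipedia (FBgn0051481), which specifies mouthparts, lies at 6707800 to 6742063 on the minus strand and had no summit within 500 bp of its start in any of the 5 lists. The nearest pooled summit was 837 bp downstream, and the nearest thresholded one 63.5 kb away. Of the 5 pooled summits within the gene the strongest (6709075, signal 55.7) ranked 11650. The strongest region in the gene ranked 10964, 11264 and 8576 in the replicates, in the middle of each list, and it was at a different place in each.

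Dfd, or Deformed (FBgn0000439), which specifies the maxillary and mandibular segments, is the only Hox gene on the plus strand (6791836 to 6802428) and the shortest, at 10.6 kb. No list had a summit within the gene itself, and replicates 2 and 3 had none within 500 bp of its start either. The pooled list had 1 summit 469 bp upstream of the start (signal 48.8, rank 14087), seen in replicate 1 at rank 19588. Replicate 3 had an overlapping region of higher rank (7625, at 31.5% from the top), but its summit lay 552 bp upstream of the start, just beyond the limit of 500 bp. The nearest thresholded summit was 113.2 kb away, the farthest of any Hox gene.

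Scr, or Sex combs reduced (FBgn0003339), which acts in the labial segment and the first thoracic segment, lies at 6823120 to 6849981. Its inner start at 6848505 had a pooled summit 11 bp upstream (signal 42.3, rank 17488), but its outer start at 6849981 had none within 500 bp. The region at the inner start ranked 12498 in replicate 1 and 16288 in replicate 3, and replicate 2 had its nearest summit 559 bp upstream. From the top of their lists these were at 41.7% in replicate 1 and 67.4% in replicate 3, and at 62.8% in the pooled list. The nearest thresholded summit was 62.5 kb away.

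Antp, or Antennapedia (FBgn0260642), which specifies the second thoracic segment, is the longest Hox gene (103.0 kb, 6896253 to 6999228) and has 3 starts. Its thresholded peak (summit 6912512, signal 127) lay in an intron of 21047 bp, 20.3 kb from the nearest Antp start, and also within an intron of the gene CG46458. At pooled rank 4243 it was among the last of the thresholded list. Its replicate ranks were 5328, 5235 and 2927 and its signals 48.4, 34.8 and 48.1, so replicate 3 alone had it among its strongest 4260. The inner start at 6932840 had a pooled region 283 bp upstream (signal 81.5, rank 7108, q under 0.05). That region was called in all 3 replicates, 294, 262 and 280 bp upstream, with ranks of 7548, 5759 and 14285. The middle start had no summit within 500 bp in any list, and the outermost start had one in replicate 2, 40 bp upstream. Over the whole gene the replicates had 12.3 ± 2.89 summits (SD, n = 3), or 11.98 ± 2.80 per 100 kb, against 20.5 ± 1.69 per 100 kb of arm 3R.

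**Figure D3:**
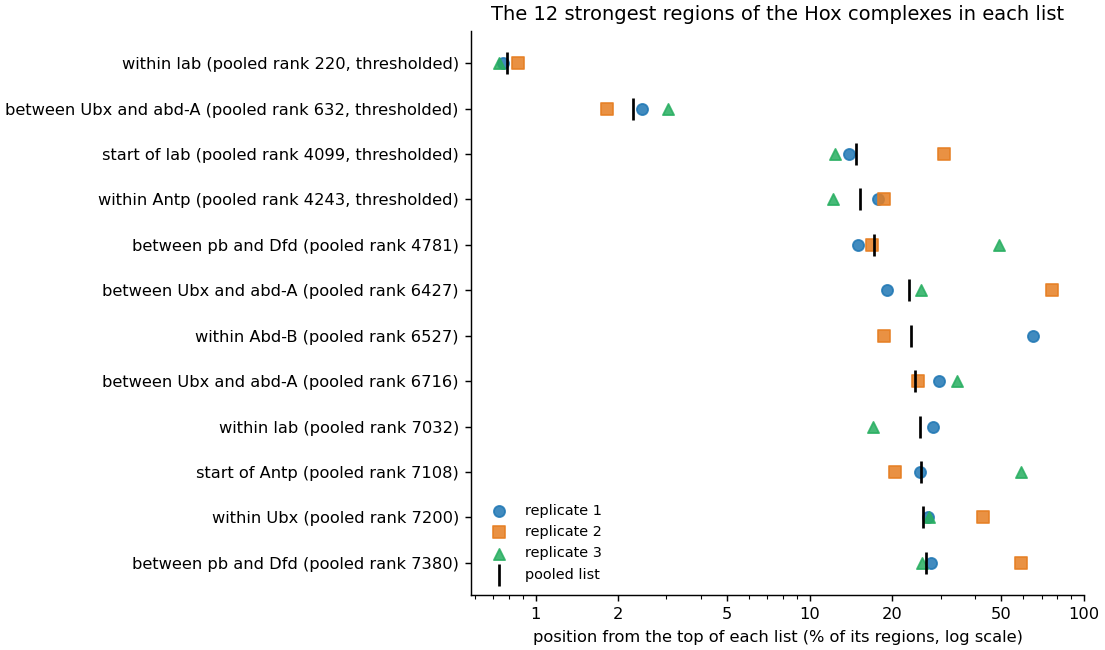
Position from the top of each list (log scale, in %) of the 12 strongest pooled regions in the complexes; colours are the 3 replicates, the black tick is the pooled list, and a missing colour means that the replicate had no overlapping region. The lab intron region is within the top 0.866% and the region between Ubx and abd-A within the top 3.04% in every replicate, while all others lie beyond 12%.

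Ubx, or Ultrabithorax (FBgn0003944), which specifies the last thoracic and first abdominal segments, lies at 16656623 to 16734426 with 1 start. None of the 5 lists had a summit within 500 bp of it, and the nearest in the pooled list was 14251 bp downstream, within the gene. That summit (16720175, signal 80.6, rank 7200, q under 0.05) was also the strongest in the gene and lay 48 bp from the start of the antisense RNA gene PS4. Within the gene the strongest regions of the replicates ranked 7345, 9085 and 6569, at 3 different places. The replicates had 8.33 ± 2.31 summits in the gene (SD, n = 3), or 10.7 ± 2.97 per 100 kb.

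Between Ubx and abd-A, in the 72.8 kb that hold cis-regulatory sequence of both genes, lay the second strongest region of the complexes. It was 257 bp wide (16798787 to 16799043, signal 631) and held pooled rank 632, and its replicate ranks were 732, 511 and 736, with signals of 248, 246 and 146. All 3 replicates therefore had it among their strongest 4260. The summit, 16798898, lay 29.2 kb from the nearest abd-A start and 1702 bp upstream of the start of lncRNA:CR45750, a long noncoding RNA gene. Further regions of the same stretch, at 16748955 (signal 88.5, rank 6427) and 16794445 (signal 85.4, rank 6716), were the next strongest between the Bithorax genes and were not thresholded. Their nearest starts of other genes were those of CG31275, 2379 bp away, and Glut3, 6134 bp away.

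The gene abd-A, or abdominal-A (FBgn0000014), which specifies the middle abdominal segments, lies at 16807214 to 16830049 with 3 starts. One pooled summit lay 142 bp upstream of one start and 155 bp downstream of another (signal 32.6, rank 26262, at 94.2% from the top of the list). Replicate 1 had it at rank 27956, and replicates 2 and 3 had no summit within 500 bp of any abd-A start. The strongest region in the gene (signal 41.7) ranked 17901, so abd-A had the weakest best region of all Hox genes in the pooled list.

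Abd-B, or Abdominal-B (FBgn0000015), which specifies the posterior abdominal segments, lies at 16927212 to 16972236 and has 6 starts. No start had a pooled or thresholded summit within 500 bp, and the nearest pooled one was 719 bp downstream. Replicate 1 alone had a summit at a start, 438 bp downstream of 16944273 at rank 28124. The strongest region in the gene (summit 16969991, signal 87.4, rank 6527, q under 0.05) ranked 19489 in replicate 1 and 5217 in replicate 2 and was not called in replicate 3. Its place in the list thus differed widely between replicates. The nearest thresholded summit, 14.4 kb from the outermost start, was at CG18622 outside the complex.

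The stretches between neighbouring Antennapedia genes held weak regions throughout. The 29.2 kb between lab and pb had 3 pooled summits, of which the peak at the lab start was thresholded. The 49.8 kb between pb and Dfd, which hold bcd and the zen genes, had 12 pooled summits and 0 thresholded ones, and 13, 9 and 11 summits in the 3 replicate lists. In the 20.7 kb between Dfd and Scr there were 8 pooled summits and 0 thresholded ones, with 12, 8 and 4 in the replicates. The 46.3 kb between Scr and Antp, which hold ftz (fushi tarazu, a pair-rule gene), had 5 pooled summits and 0 thresholded ones. Replicates differed in that last stretch, where the strongest region ranked 23582, 12990 and 3926, so replicate 3 alone had a region among its strongest 4260 there.

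Counted over whole complexes, thresholded summits were sparse. The Antennapedia complex had 3 (0.888 per 100 kb) and the Bithorax complex 1 (0.317 per 100 kb), against 3.26 per 100 kb of arm 3R and 3.18 of all arms. The ratios to arm 3R were 0.272 and 0.0971. With the 4260 strongest regions of single replicates the ratio was 0.238 ± 0.185 for the Antennapedia complex (2, 1 and 5 summits, SD, n = 3). For the Bithorax complex it was 0.0957 ± 0.000227 (1 summit in each, SD, n = 3). The latter SD comes only from the counts of arm 3R, as the complex had 1 summit in every replicate. Weak regions were nearer to the level of the arm. The pooled list gave 57 summits in the Antennapedia complex (16.9 per 100 kb) and 38 in the Bithorax complex (12.04 per 100 kb), against 20.7 per 100 kb of the arm, ratios of 0.813 and 0.580. From the whole replicate lists the ratios were 0.764 ± 0.160 and 0.600 ± 0.0958 (SD, n = 3 each). Density of annotated starts went with these counts, at 7.40 and 4.12 coding starts per 100 kb in the Antennapedia and the Bithorax complex, against 14.2 on arm 3R. Per coding start, the complexes had 0.105 thresholded summits, against 0.230 on arm 3R, and the part of start density in the counts was not tested further.

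**Figure D4:**
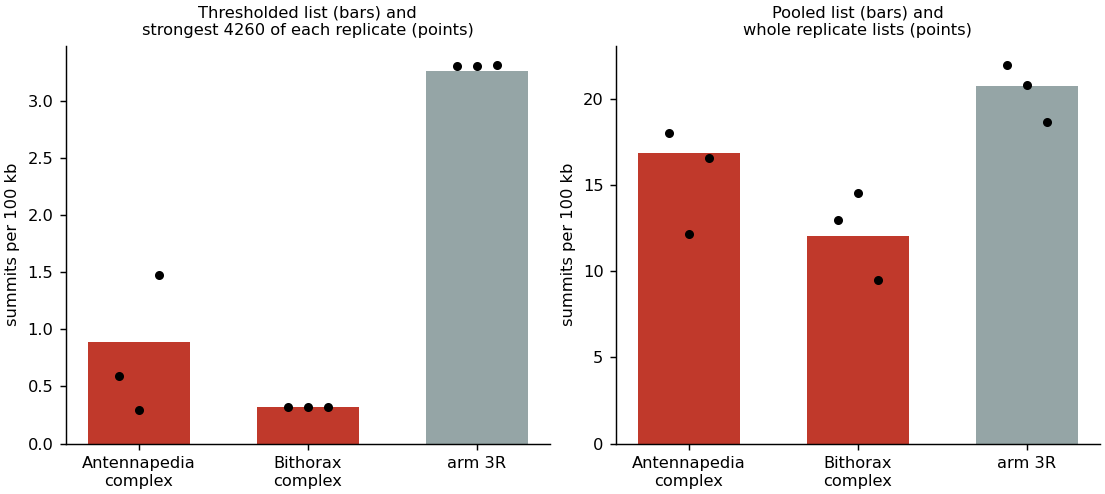
Summits per 100 kb in the Antennapedia complex, the Bithorax complex and the whole arm 3R; bars are the thresholded list (left) and the pooled list (right), and points are the strongest 4260 regions of each of 3 replicates (left) or the whole list of each (right). On the left every replicate point of the complexes (0.296 to 1.48) lies below those of the arm (3.31 to 3.32), and on the right the points lie at 9.51 to 18.1 in the complexes and 18.7 to 22.0 on the arm.

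The 95 pooled regions of the complexes were also weaker than the list as a whole. Of these 95, 16 had q under 0.05 (16.8%), against 29.7% of all pooled regions, and 28 were overlapped by a region in every replicate (29.5%), against 45.9%. The thresholded list kept 4 of the 95 (4.21%), against 15.3% of all. The weakest of these 4, in the Antp intron, had signal 127, and the strongest region of the complexes left out of the list was the one near bcd, at 114. Their median rank was 17586 of 27868. By place, 7 lay within 500 bp of a Hox start, 39 elsewhere in a Hox gene and 49 between Hox genes, and the thresholded ones were 1, 2 and 1 of these.

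Just outside the complexes thresholded summits were more frequent. In the 20 kb on each side of both complexes (80 kb in all) there were 7 thresholded summits, or 8.75 per 100 kb, against 3.26 over arm 3R. Of the 18 coding genes with a start there, 8 had one, against 28.2% of all coding genes. Next to lab, 3991 bp beyond the lower end of the complex, a peak at twr and CG1307 had signal 4797 (rank 158), and 9059 bp beyond the lower end of the Bithorax complex a peak at CCT3, which encodes a chaperonin subunit, had signal 9455 (rank 85). The flanks also had 27.5 coding starts per 100 kb, and per coding start they had 0.318 thresholded summits, against 0.105 in the complexes. No flank summit lay above Antp, where no coding gene had a start within 20 kb.

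Gene length was another measure on which Hox genes differ from most genes. Of the 1784 protein-coding genes with a length between those of Dfd and Antp (10593 to 102976 bp), Hox genes included, 31.8% had a thresholded summit in the gene and 32.4% at a start. Among the Hox genes it was 2 of 8 in the gene (lab and Antp) and 1 of 8 at a start.

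Among the other protein-coding genes of the complexes, 0 of 18 had a thresholded summit at a start, against 28.2% of all coding genes. In the pooled list 2 of the 18 had one, against 57.3%. These were bcd (bicoid, which patterns the head; signal 114, rank 4781, 276 bp upstream) and Ama (Amalgam, a cell adhesion protein; signal 59.9, rank 10574). The region near bcd was called in all replicates, at ranks 4492, 4723 and 11844. The homeobox genes zen, zen2 and ftz had no pooled summit within 500 bp of a start, so that 1 of 4 non-Hox homeobox genes of the Antennapedia complex had a pooled summit and 0 of 4 a thresholded one. Of 36 genes in the complexes that do not code for protein, 0 had a thresholded summit near a start, against 6.1% of the 3738 such genes on all arms, and 6 had a pooled one, against 28.5%.

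Genes that work with or on Hox genes were counted from short lists. Of all coding genes, 28.2% had a thresholded summit at a start and 57.3% a pooled one. Of 6 cofactors and partners, 1 had a thresholded summit at a start, exd (extradenticle, the main Hox cofactor; signal 142, rank 3746), at a peak shared with the starts of eIF5 and CG46312. Of 8 regulators of the early Hox domains (hb, Kr, kni, gt, tll, cad, ftz and eve), 0 had one, and of 12 genes known downstream of Hox proteins 1 had one, fkh (signal 350, rank 1230; a forkhead factor of the salivary gland, where Scr acts). In the NK cluster, another group of homeobox genes, it was 1 of 6, tin (tinman, needed for the heart; signal 295, rank 1522). In the pooled list it was 5 of 6 cofactors, 1 of 8 early regulators, 8 of 12 downstream genes and 1 of 6 NK genes. Of the Polycomb and trithorax group genes, 14 of the 26 found in the annotation had a thresholded summit at a start (53.8%), against 28.2% of all coding genes. A pooled summit was there at 23 of the 26. Among the strongest 4260 regions of the replicates they numbered 15, 14 and 14. The largest signals were at Sfmbt (18242, rank 17), brm (17297, rank 23), Scm (15481, rank 30) and Asx (13763, rank 42), of which Sfmbt, Scm and Asx encode Polycomb group proteins and brm the ATPase of a trithorax group remodeller. At 8 of the 14 peaks another gene also had a start within 500 bp, so that these peaks cannot be assigned to 1 gene; among the genes named, CG5439, Arl1 and Cpsf160 share the peaks of Sfmbt, brm and Asx. All 4 signals exceed that of the strongest region in the complexes, but the list was chosen with earlier results of these data known.

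By the ranks of their start regions in the 3 replicates, the genes most like lab (ranks 4173, 8651 and 2980) among 6036 compared were sm, CG42394, hid, CG7768 and MTA1-like. For sm the ranks were 3864, 7633 and 2937, and for hid, a cell death gene, 4183, 7541 and 2792. The largest difference from lab in any replicate was 0.0544 on the log10 scale for sm and 0.0660 for MTA1-like.

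The promoters of the Hox genes were searched for short sequences on both strands, in 301 bases from 250 upstream to 50 downstream of each of the 19 starts. The sequence GAGAG, the core recognised by GAGA factor, a trithorax group protein, was present at 16 of 19 Hox starts (84.2%) and at a start of all 8 genes, against 33.2% of all coding starts. The 3 starts without it were 1 of abd-A and 2 of Abd-B. Matches that overlap were counted singly, and up to 6 were found in 1 window (Dfd). To show them, the Ubx promoter, where no list had a region, is given from 200 bases upstream to 50 downstream of its start in the sense of the gene (minus strand, chr3R:16734376-16734626), with GAGAG and its complement CTCTC in capitals.

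Ubx promoter: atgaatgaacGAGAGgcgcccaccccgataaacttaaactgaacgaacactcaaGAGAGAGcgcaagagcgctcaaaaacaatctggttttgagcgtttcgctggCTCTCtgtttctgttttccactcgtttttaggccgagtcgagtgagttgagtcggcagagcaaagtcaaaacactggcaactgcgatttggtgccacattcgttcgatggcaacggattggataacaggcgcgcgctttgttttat

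GCCAT, the core bound by the Polycomb recruiter Pho, was present at 12 of 19 Hox starts (63.2%), against 41.1% of all coding starts. In thresholded summit windows of 201 bases GAGAG was present in 19.2% and GCCAT in 27.3%. TATCGATA, the DNA replication-related element, was at 0 of 19 Hox starts, against 7.98% of all coding starts, and at 11.0% of thresholded windows. Its core CGATA was at 5 of 19 (26.3%), against 45.7%. Motif 1 in the form GGTCACAC was at 0 of 19, against 6.73%, TATAAA at 3 of 19 (15.8%), against 42.3%, and the homeodomain core TAATTA at 0 of 19, against 18.9%. The windows of 2 abd-A starts (16829752 and 16830049) share 4 bp, and the other windows do not overlap, but starts of 1 gene are not separate observations. Hox promoter windows also held more G and C, between 31.6% and 58.5%, and 18 of 19 were above the median of 39.2% over all coding starts, and the part of base composition in these shares was not tested.

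In the 4 thresholded windows printed above, TATCGATA, GGTCACAC, GCCAT and TAATTA had no match. GAGAG matched once at the lab start and once between Ubx and abd-A, CGATA once at the lab start, and TATAAA once in the Antp intron. GTCAC, a sequence picked after the windows were read, occurred 3 times in the lab intron window and once at the lab start. It was present in 37.9% of all thresholded windows and in 53.5% of the 1000 strongest (201 bases each). In coding promoters, whose windows are wider (301 bases), it was present in 33.9%. At Hox starts it was present at 6 of 19 (31.6%).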

How the data were processed

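ChIP-seq of CG3995 with GFP was carried out on 3 biological replicates of 1 group, from chromatin sonicated to 200 to 800 bp, per the labels. The authors deposited narrowPeak lists on dm6 for each replicate (called against a control file, per the submitters' notes), for the pooled replicates, and after an irreproducible discovery rate threshold. The deposited signal was taken as the caller's measure of enrichment, on a scale that was not stated, and the deposited −log10 q-value has a highest value shared by many regions. Aligner, caller, versions and threshold are not given in the sources used here, and no depth could be derived. Lists on dm3 were not used. How strictly regions were called sets how many weak ones a list holds, so signal was ranked within a list only.

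Starts and genes came from Ensembl release 115 (BDGP 6.54), transposable elements left out, and sequences from RefSeq, where arm 3R has the 32079331 bp of dm6. A gene was counted when a summit lay within 500 bp of a start. Overlap meant at least 1 bp. Python 3.11.15, pandas 2.3.3 and numpy 2.4.6 were used, and the counting functions were checked on simulated data. The design has 1 group and members are not replicates, so no test was made: counts stand beside the share of all genes. The members and gene lists were chosen with earlier results of these data known. Named were all members, well-known genes of the complexes, up to 4 genes per list with the largest thresholded signal, the 5 genes most like lab and the 3 strongest regions of each complex. Genes of the flanking 20 kb, genes sharing a peak and other regions named were chosen after their values were seen.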

Additional observations from a re-analysis of the deposited data

How the results depend on the processing

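The thresholded count at starts (1 Hox gene, lab) was 1 at 200 bp, at 1000 bp, at outermost starts, by interval overlap and with merged regions. It was 0 among the 2130 strongest thresholded peaks and 0 where a strongest-4260 region was required in every replicate, and 0 to 1 where it was required in a pair (0 without replicate 1 or without replicate 3). The 4 thresholded summits of the complexes became 2 among the 2130 strongest peaks, 2 with support in every replicate and 2 to 3 with support in a pair (2 without replicate 1 or without replicate 3). The pooled count of 5 Hox genes became 3 at 200 bp, 3 at outermost starts and 7 at 1000 bp. With the 2130 strongest regions of each replicate there were on average 0 Hox genes with a region at a start and 2 summits in the complexes, and with the 8520 strongest 1.33 and 15.3. Among the 13934 strongest pooled regions the density ratio was 0.509 for the Antennapedia complex and 0.454 for the Bithorax complex, and the Bithorax ratio was 0.704 with 10 kb added on each side. Across the settings tried on the pooled list and on averages of whole replicate lists, the ratios lay between 0.454 and 0.855. The ratios of thresholded summits to arm 3R were lower, at 0.272 for the Antennapedia complex and 0.0971 for the Bithorax complex. Of 50 values under other settings, 33 stayed within 1.5 times a count or 1 SD of a ratio and 17 moved; except where a setting changes which regions or starts enter, the cause was not tested. Ranking by q-value shifted a start region by at most 334 ranks; ranking by the p-value column was not run, since it holds no values. No paired analysis was possible because all samples belong to 1 group.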

Other observations

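Among the 6 genes of the complexes that do not code for protein and had a pooled summit near a start were mir-10, a microRNA gene between Dfd and Scr (signal 61.3, rank 10204), lncRNA:bxd, transcribed from the bithoraxoid region upstream of Ubx (38.3, rank 20485), and lncRNA:iab8, transcribed between abd-A and Abd-B (58.3, rank 10920). The microRNA genes mir-iab-4 and mir-iab-8 of the Bithorax complex and mir-993 of the Antennapedia complex had none. The regions at mir-10, lncRNA:bxd and lncRNA:iab8 were weak, each with q above 0.05. That at mir-10 was overlapped in replicates 1 and 2, that at lncRNA:bxd in replicate 2 only and that at lncRNA:iab8 in every replicate. These names were chosen after their values were seen.

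The stretch between lab and pb holds 8 coding genes, among them 7 genes of the Ccp84 cluster of cuticle proteins. Of these 7, 0 had a pooled summit at a start, against 57.3% of all coding genes. The stretch of 97.2 kb between abd-A and Abd-B, which holds the infra-abdominal regulatory regions, had 14 pooled summits and 0 thresholded ones, and its strongest region ranked 7841 in the pooled list. In the replicates the strongest region there ranked 10047, 8625 and 8788, with 18, 16 and 8 summits in replicates 1, 2 and 3.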
